A study of Mus musculus with 12 samples.

Results

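The collagen genes of mouse mammary tumours and mammary epithelium were described gene by gene and tumour by tumour. Members were all genes whose symbol was Col, a number, the letter a and a number, and that had at least 10 counts summed over all 12 libraries. The rule gave 44 of the 54658 genes in the files, and no gene with such a symbol fell below the count minimum. They lay on 15 chromosomes, and each was tested. RNA sequencing had been done on 9 mammary tumours of genotype Trp53R245W/+, heterozygous for a missense change of the tumour suppressor p53, and on 3 preparations of epithelia enriched from mammary glands of genotype WT. All were from female mice of the C57BL/6J X BALB/cJ F1 hybrid, and no age, treatment or inducing agent is given in the labels. Genotype and tissue state changed together, so their effects cannot be told apart, and the labels do not say whether every tumour or preparation came from a different mouse. The p-values therefore measure the spread between these samples, which may in part be technical.

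Collagens are secreted or membrane proteins built from 3 chains wound around each other, in which glycine recurs at a fixed spacing along the helical part. Fibrillar collagens such as types I, III and V form the rope-like fibrils of connective tissue, type IV forms the sheet-like network of basement membranes that separate epithelium from stroma, and fibril-associated collagens such as types IX and XII sit on the surface of fibrils. In the normal gland fibroblasts make most fibrillar collagen, while types II, IX, X and XI are best known from cartilage. The predicted chains of the longest coding transcripts carried these forms: the longest unbroken run of glycine-X-Y triplets was 337 to 344 triplets in fibrillar chains apart from Col24a1 and Col27a1 (216 and 217), 39 to 66 triplets in the 6 type IV chains, whose helix was split into 23 to 27 runs, and 113 triplets in all 3 type IX chains.

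Counts in genes were 19695318 to 33600076 per library, and a value of 0 could hide up to 3 counts, which stood for 0.099 to 0.274 CPM (the count scaled to library size). Alignments outside genes made up 39.9% to 41.51% of the epithelium libraries and 8.08% to 32.25% of the tumour libraries. Tumour 4 stood apart, with 51.97% of alignments not unique and the small nuclear RNA Rn7sk taking 22.58% of its counts in genes. Leukocyte markers summed to 1216 to 1451 CPM in epithelium and 66.8 to 325 CPM in tumours, so the enriched epithelia held other cells too. Most of the epithelium sum was Ptprc, at 1100 to 1304 CPM. Of the 4 markers 3 had a negative log2 fold change, and Cd68 had a positive one (0.76, not called). Epithelial identity was present in both groups, with luminal markers at 1868 to 2881 CPM in epithelium and 1118 to 5793 CPM in tumours. All levels below are CPM with trimmed mean of M values (TMM) scaling unless another scale is named.

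The sequences before the start sites of 4 collagen genes are shown because these genes are described in detail below, Col9a1, Col11a1 and Col10a1 for the cartilage collagens and Col3a1 for the interstitial group. Each is the 250 bases before the RefSeq start, on the coding strand of GRCm38.p6, with matches on either strand to TATAAA (the TATA box), to CCAAT, to GGGCGG (GC box) or to ACAAT (SOX core) in capitals. They cover chr1:24177360-24177609 (Col9a1), chr3:114030290-114030539 (Col11a1), chr10:34389731-34389980 (Col10a1) and chr1:45311288-45311537 (Col3a1), all on the plus strand.
Col9a1: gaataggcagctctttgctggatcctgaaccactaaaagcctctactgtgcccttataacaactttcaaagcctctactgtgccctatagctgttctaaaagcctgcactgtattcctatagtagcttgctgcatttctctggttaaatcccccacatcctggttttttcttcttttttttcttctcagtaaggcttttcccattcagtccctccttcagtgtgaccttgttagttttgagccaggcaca
Col11a1: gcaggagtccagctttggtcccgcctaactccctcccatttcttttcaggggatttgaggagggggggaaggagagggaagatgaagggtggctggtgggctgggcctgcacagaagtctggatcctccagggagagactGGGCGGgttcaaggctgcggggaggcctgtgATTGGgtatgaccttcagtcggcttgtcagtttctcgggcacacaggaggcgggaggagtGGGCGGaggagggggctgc
Col10a1: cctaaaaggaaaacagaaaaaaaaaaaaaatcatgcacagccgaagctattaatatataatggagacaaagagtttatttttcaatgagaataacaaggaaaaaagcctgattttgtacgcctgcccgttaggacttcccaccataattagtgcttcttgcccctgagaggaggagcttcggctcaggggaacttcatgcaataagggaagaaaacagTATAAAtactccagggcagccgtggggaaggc
Col3a1: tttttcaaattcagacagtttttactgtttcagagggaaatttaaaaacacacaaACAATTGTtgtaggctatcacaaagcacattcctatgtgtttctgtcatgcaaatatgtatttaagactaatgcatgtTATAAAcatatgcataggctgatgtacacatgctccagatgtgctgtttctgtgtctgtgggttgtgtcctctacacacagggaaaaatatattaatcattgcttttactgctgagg
The Col9a1 window held none of the 4 motifs. The Col11a1 window held 2 GC boxes and a CCAAT box on the minus strand, the latter beginning at -79 from the start. The Col10a1 window held a TATA box beginning 32 bases before the start, at -32, and the Col3a1 window held one at -117 and 2 overlapping SOX cores, 1 on each strand. Windows matched 35 of the 44 collagens, with 38 windows in all. Among them 57.9% held a GC box and 5.3% a SOX core, against 32.7% and 27.7% of 32851 windows of all genes. TATA boxes (13.2% against 12.4%) and CCAAT boxes (34.2% against 33.8%) were about as frequent in both. A match is a description of letters, not of a site in use.

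Tumours held more RNA of several collagen classes than epithelium, but the genes concerned were mainly not the abundant interstitial ones. By edgeR's quasi-likelihood test with Benjamini-Hochberg adjustment over all 21456 genes tested, 9 of 44 collagens rose in tumours (Col2a1, Col11a1, Col12a1, Col9a3, Col10a1, Col8a2, Col18a1, Col4a2 and Col4a5), 1 fell (Col19a1) and 34 were not called. The share called was 22.7%, near the 20.3% of all genes. The share called higher was 20.5%, against 8.89% of all genes, and the share called lower was 2.27%, against 11.4%. The median log2 fold change was 0.95 over the collagens, with 33 positive and 11 negative, and 0.17 over all genes. The collagen median was 0.55 with DESeq2 and 0.27 with limma-voom, against 0.20 and -0.02 over all genes. In 6 collagens every tumour lay above every epithelium library, as in 10.2% of all genes, and in 2 every tumour lay below, as in 14.1% of all genes. Lower RNA from fewer cells of a type and less RNA per cell cannot be told apart in these bulk samples.

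Calls depended on the 3 epithelium libraries and on the alignments outside genes. Leaving out any 1 epithelium library left 4 of the 9 higher calls, Col2a1, Col10a1, Col11a1 and Col12a1, and kept Col19a1 lower. The share of all genes called also dropped, from 20.3% to between 8.97% and 9.32%. With the percentage of alignments outside genes in the model, which separated the groups without overlap, no collagen was called higher, though the median log2 fold change was then 2.34 over collagens and 0.32 over all genes. DESeq2 called 14 collagens higher and 5 lower, and limma-voom 15 higher and 7 lower, in each case with all 9 of edgeR's higher calls among them. Of all genes, 3.07% were called with the alignments outside genes in the model, 25.3% with DESeq2 and 49.5% with limma-voom. The number of calls thus also changed over the whole table. Whether it changed more among collagens than among all genes was not tested.

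**Figure D1:**
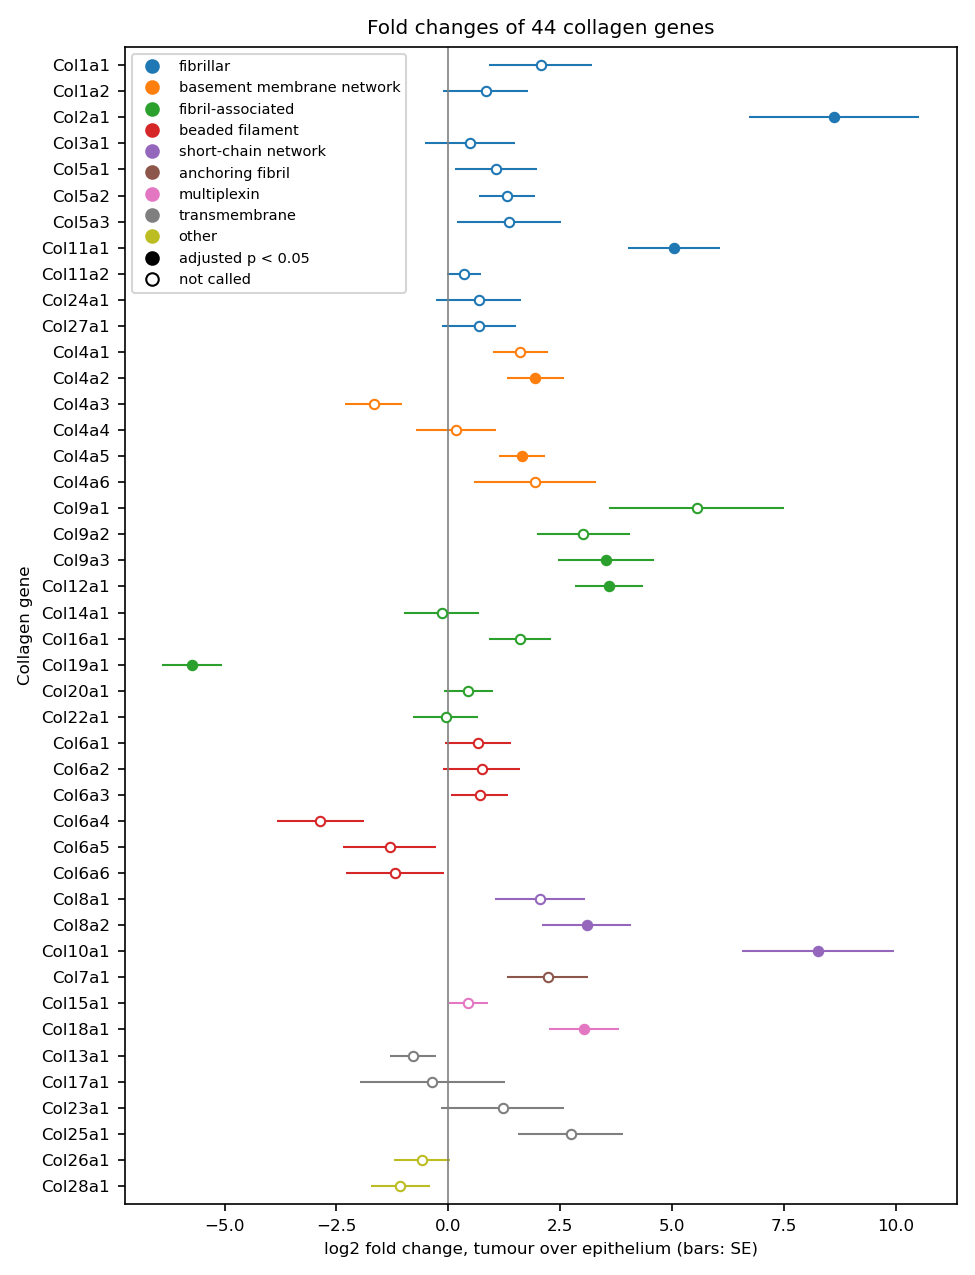
Log2 fold change of each of the 44 collagen genes, tumours (n = 9) over epithelium (n = 3), with its standard error as a horizontal bar. Colours mark the collagen class, and filled points are the 10 genes with an edgeR adjusted p under 0.05. Col2a1 and Col10a1 lie farthest to the right at 8.62 and 8.26, and Col19a1 lies farthest to the left at -5.72.

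The fibrillar class held 11 genes, of which Col2a1 and Col11a1 rose (18.2%, against 8.89% of all genes) and 9 were not called. The class median log2 fold change was 1.07. Col2a1 (chr15:97975602-98004695, minus strand), the single chain of cartilage type II collagen, was at 0, 0.139 and 0.101 CPM in epithelium libraries 1, 2 and 3. In tumours 1, 4, 5, 14, 17, 20, 21, 24 and 27 it was at 3.79, 61.5, 1.68, 5.46, 38.3, 43.8, 82.8, 61.8 and 1.34 CPM. Tumours 4, 17, 20, 21 and 24 stood at 38.3 CPM or more and the other 4 stood at 5.46 CPM or less, yet even the lowest lay above every epithelium library. This gave a log2 fold change of 8.62 ± 1.90 (SE; edgeR adjusted p = 0.00715). Epithelium held only 7 counts of the gene in all against 6738 in tumours, so the pooled ratio, 368-fold, had a 95% counting interval of 178 to 915.

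Col11a1 (chr3:114030540-114220718, plus strand), a chain of type XI collagen that nucleates thin fibrils, was at 8.00, 11.5 and 11.7 CPM in epithelium. In tumours it ran from 29.4 CPM (tumour 1) through a median of 266 to 1052 CPM (tumour 20). All 9 tumours exceeded the highest epithelium library more than 2-fold, and the log2 fold change was 5.05 ± 1.03 (SE; edgeR adjusted p = 0.00458). Its partner chain Col11a2 showed no such difference between groups: it was at 6.27 to 8.11 CPM in epithelium and 3.72 to 13.9 CPM in tumours (log2 fold change 0.36). Across the 9 tumours the 2 chains gave r = 0.67, with tumour 1 lowest for both.

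The interstitial fibrillar genes were abundant in both groups, and tumour 21 set their range. Col1a1, the main chain of type I collagen, was at 313, 286 and 256 CPM in epithelium and from 64.8 (tumour 27) through a median of 413 to 5883 CPM (tumour 21) in tumours. Groups overlapped through tumour 27 alone, and the log2 fold change of 2.06 ± 1.16 (SE) was not called (edgeR adjusted p = 0.219). Its partner Col1a2 was at 847, 698 and 787 CPM against 115 (tumour 27), 614 and 6815 CPM (tumour 21), with a log2 fold change of 0.83 ± 0.94 (SE; edgeR adjusted p = 0.553). Col3a1, the type III chain and the most abundant collagen of every epithelium library, was at 2586, 1569 and 2396 CPM against 472 (tumour 27), 1578 and 17738 CPM (tumour 21). Its tumour median thus lay beside the lowest epithelium library, and the log2 fold change was 0.49 ± 1.01 (SE; edgeR adjusted p = 0.755).

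The type V chains, which join type I fibrils and limit their width, peaked in the same tumour. Col5a1 was at 162, 124 and 150 CPM in epithelium and 82.1 to 1541 CPM in tumours (median 131). Col5a2 was at 305, 201 and 273 CPM against 282 to 2210 CPM (median 389), and Col5a3 at 93.9, 49.4 and 83.4 CPM against 35.1 to 1160 CPM (median 46.2). In each the highest value was that of tumour 21 and none was called by edgeR (adjusted p from 0.151 to 0.424), whereas limma-voom called Col5a2 higher (log2 fold change 0.99, adjusted p = 0.0207). The minor fibrillar genes Col24a1 and Col27a1 were also highest in tumour 21, at 22.4 and 101 CPM, against epithelium levels of 2.64 to 2.91 and 18.9 to 23.5 CPM. The 8 fibroblast markers were also highest in tumour 21: they summed to 1291 to 1884 CPM in epithelium and to 351 (tumour 5), 785 (median, tumour 1) and 3154 CPM (tumour 21) in tumours. Tumour 27, the lowest for Col1a1, Col1a2 and Col3a1, stood at 789 CPM of these markers, near the median, but 692 CPM of this was Postn. It was the lowest tumour for Mfap5 (2.21 CPM), Pi16 (1.34), Clec3b (0.254) and Thy1 (22.1). It was not the lowest for Fap, Dpt or Pdgfra, the last at 61.1 CPM against a tumour median of 56.5. None of the 8 was called and 7 had a negative log2 fold change. Their part in the fibrillar values was not tested.

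**Figure D2:**
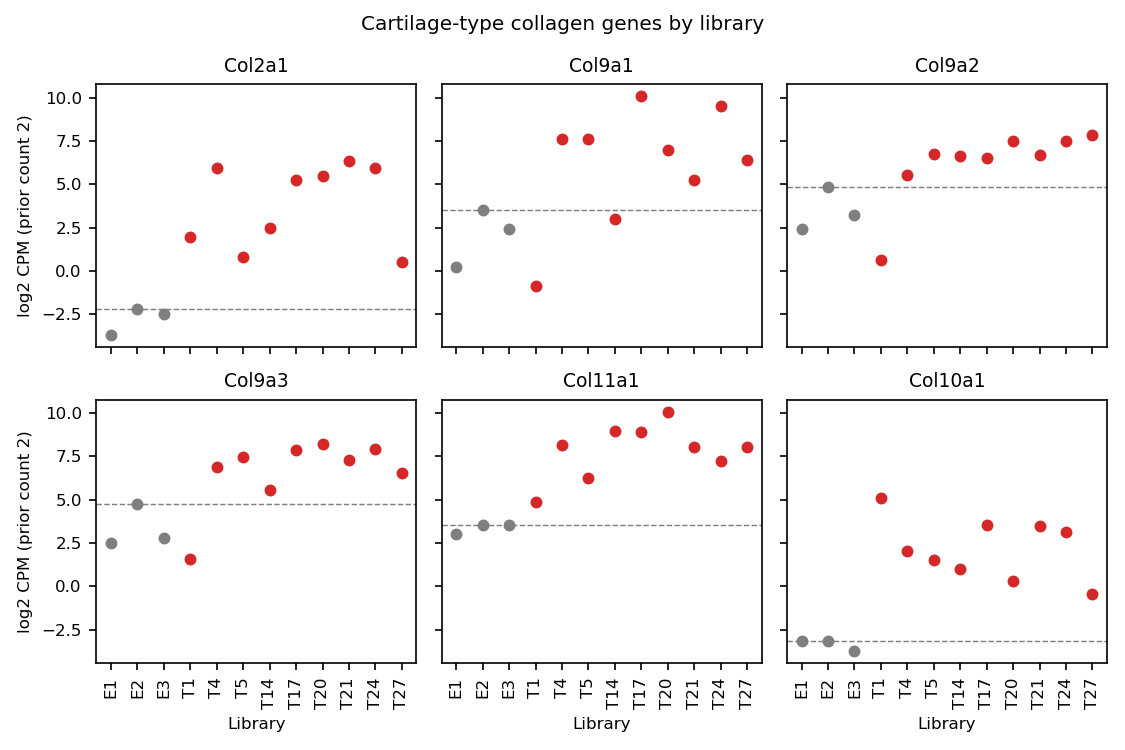
Log2 CPM (prior count 2) of 6 collagen genes best known from cartilage in each of the 12 libraries, epithelium in grey and tumours in red. The dashed line marks the highest epithelium library. All 9 tumours lie above it for Col2a1, Col11a1 and Col10a1, 8 of 9 for Col9a3, and tumour 1 lies below it for all 3 type IX genes.

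The type IX genes belong to the fibril-associated class and encode the 3 chains of the heterotrimer that coats type II fibrils. Col9a3 (chr2:180597790-180622189, plus strand) was at 5.64, 26.8 and 6.86 CPM in epithelium and from 2.93 (tumour 1) through 154 to 300 CPM (tumour 20) in tumours. In 8 tumours it lay above the highest epithelium library, in 7 of them by more than 2-fold, and the log2 fold change was 3.53 ± 1.07 (SE; edgeR adjusted p = 0.0344). Leaving out any 1 epithelium library ended the call, with an adjusted p of at most 0.145. Its exons share 234 bases, 6.07% of the gene's exonic bases, with Tcfl5 on the opposite strand, a gene with 56 counts in all libraries together.

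Col9a1 (chr1:24177610-24252684, plus strand) varied most of the type IX genes. It was at 1.07, 11.3 and 5.21 CPM in epithelium and at 0.465, 197, 198, 7.90, 1077, 125, 38.0, 737 and 84.1 CPM in tumours 1, 4, 5, 14, 17, 20, 21, 24 and 27. Levels in 7 tumours lay above every epithelium library, tumour 14 lay within their range and tumour 1 lay below it. Per transcript length it was the most abundant collagen of tumour 24 and the second of tumour 17, and in the 3 epithelium libraries it held places 38, 25 and 31 of 44. Its log2 fold change of 5.55 ± 1.96 (SE) missed the threshold (edgeR adjusted p = 0.0617). Col9a2 was at 5.19, 28.4 and 9.13 CPM against 1.46 (tumour 1), 103 and 228 CPM (tumour 27), also short of it (log2 fold change 3.01 ± 1.04, SE; edgeR adjusted p = 0.0574). Both were called without tumour 1, by DESeq2 (adjusted p = 0.00014 and 0.00302) and by limma-voom (adjusted p = 0.0203 and 0.0189).

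The 3 chains were not in a fixed proportion. Per transcript length, Col9a1 was at 0.158 to 0.435 of Col9a2 in epithelium, and in tumours the ratio ran from 0.0614 (tumour 14) to 9.01 (tumour 17). Tumours 4, 5, 17 and 24 held more Col9a1 than Col9a2. The difference between groups was within the spread (exact permutation p = 0.314, two-sided, adjusted over 10 ratios p = 0.627).

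Short-chain collagens form hexagonal networks, type X in hypertrophic cartilage and type VIII under endothelium. Col10a1 (chr10:34389981-34397085, plus strand) was at 0.0346, 0.0348 and 0 CPM in epithelium, which is 2 counts in all. In tumours it ran from 0.653 (tumour 27) through 4.01 to 34.3 CPM (tumour 1), and no tumour overlapped epithelium. The log2 fold change was 8.26 ± 1.69 (SE; edgeR adjusted p = 0.00458), and the pooled ratio of 388-fold had a 95% counting interval of 107 to 3209. The order of tumours differed from that of Col2a1: tumour 1, the highest for Col10a1, held 3.79 CPM of Col2a1.

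Col8a2 was at 1.73, 4.10 and 1.62 CPM in epithelium and from 1.92 (tumour 27) through 15.9 to 61.1 CPM (tumour 21) in tumours. It lay above every epithelium library in 7 tumours (log2 fold change 3.09 ± 0.99, SE; edgeR adjusted p = 0.0431). The call ended without any 1 epithelium library, without tumour 14, 17, 20 or 24, with upper quartile scaling and with either other filter, at an adjusted p of up to 0.169. Col8a1 was at 24, 124 and 15.8 CPM against 22.8 (tumour 27), 184 and 836 CPM (tumour 1) and was not called (log2 fold change 2.05; edgeR adjusted p = 0.162).

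Markers of cartilage other than collagens were counted beside these genes. Of 11 such markers 8 passed the filter on low counts and 2 were called, both higher: Acan, the core protein of the large cartilage proteoglycan (log2 fold change 7.03, edgeR adjusted p = 0.0259), and Chad (4.07, adjusted p = 0.0296), which stayed below 1 CPM in every library. The summed level was 41.0 to 53.4 CPM in epithelium and 79.4 (tumour 20), 152 and 698 CPM (tumour 17) in tumours. Most of the last value was Comp, at 572 CPM in tumour 17. Sox9, the transcription factor that drives type II collagen in cartilage, was at 15.6, 25 and 16.0 CPM in epithelium and from 3.27 (tumour 24) to 128 CPM (tumour 1) in tumours (log2 fold change 1.47, edgeR adjusted p = 0.222). Tumour 24 thus had the lowest Sox9 and 61.8 CPM of Col2a1, and tumour 1 had the highest Sox9 and Acan (31.8 CPM) and the lowest level of all 3 type IX genes and of Col11a1. The other SOX genes of the list differed from Sox9. Sox5 and Sox6 were both lowest in tumour 1, at 2.06 and 0.332 CPM, and tumour 24 held 62.3 and 2.65 CPM of them. Matn1, Matn3 and Hapln1 were at 0.405 CPM or less in every library. Whether cartilage-like cells had a part in the collagen values was not tested.

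Col12a1 (chr9:79598991-79718831, minus strand), the large fibril-associated chain that links fibrils to their surroundings, had the highest mean of its class over all 12 libraries. In epithelium Col14a1 exceeded it in every library and Col16a1 in libraries 2 and 3. Col9a1 exceeded it in tumours 17 and 24, Col16a1 in tumours 20 and 27, Col9a3 in tumour 20 and Col9a2 in tumour 27. Col12a1 was at 73.0, 63.3 and 67.5 CPM in epithelium and from 167 (tumour 27) through 730 to 2287 CPM (tumour 21) in tumours. Every tumour exceeded the highest epithelium library more than 2-fold (log2 fold change 3.59 ± 0.76, SE; edgeR adjusted p = 0.00581), and the call held on leaving out any 1 library. Its relative Col14a1 was at 144, 161 and 171 CPM in epithelium and at 40.2 to 112 CPM in 8 tumours, while tumour 21 held 743 CPM. The log2 fold change was -0.15 (edgeR adjusted p = 0.91), but Col14a1 was called lower without tumour 21 and by DESeq2 (log2 fold change -1.14, adjusted p = 0.00902). These 2 runs may not be separate, because DESeq2 at its default settings can replace a count far from the rest of its group.

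Col19a1 (chr1:24261890-24587472, minus strand) was the single collagen that fell. It was at 1.66, 0.939 and 0.980 CPM in epithelium and at 0 in tumours 5, 14, 17, 21 and 24, and the highest tumour, tumour 4, held 0.0912 CPM. The log2 fold change was -5.72 ± 0.67 (SE; edgeR adjusted p = 0.00012), and 104 epithelium counts stood against 4 in tumours, which is 68.1-fold lower with a 95% counting interval of 25.8 to 255. Its 3′ end lies 9205 bases from that of Col9a1, tail to tail, and Col9a1 had the opposite sign. The other genes of the class were not called by edgeR. Col16a1 was at 63.7, 176 and 95.7 CPM against 74.0 to 980 CPM with tumour 27 far above the rest (called by limma-voom, log2 fold change 1.35, adjusted p = 0.0287). Col20a1 was at 5.92 to 13.1 CPM against 3.10 to 30.8 CPM (tumour 5), and Col22a1 was below 3 CPM throughout.

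The type IV class held 6 genes in 3 head-to-head pairs, of which Col4a2 and Col4a5 rose (33.3%, against 8.89% of all genes) and 4 were not called. Col4a1 (chr8:11198423-11312826, minus strand), the more abundant chain of the ubiquitous trimer, was at 633, 546 and 572 CPM in epithelium and from 569 (tumour 14) through 1553 to 4353 CPM (tumour 20) in tumours. Tumours 14 and 24 lay at the level of epithelium and the other 7 lay above it. The log2 fold change of 1.61 ± 0.61 (SE) was not called by edgeR (adjusted p = 0.0808) but was by DESeq2 (0.0261) and limma-voom (0.00421). Col4a2 (chr8:11312805-11449287, plus strand) was at 263, 263 and 239 CPM against 300 (tumour 24), 945 and 2553 CPM (tumour 20), so that every tumour lay above every epithelium library. Its log2 fold change was 1.94 ± 0.64 (SE; edgeR adjusted p = 0.0472). That call ended without any 1 epithelium library, without tumour 1, 4, 5, 17 or 27, with upper quartile scaling and with either other filter, at an adjusted p of up to 0.166.

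The annotated first exons of Col4a1 and Col4a2 overlap by 22 bases at chr8:11312805-11312826, whereas 71 bases at chr1:82586850-82586920 lie between the starts of Col4a4 and Col4a3. Both stretches are shown on the plus strand of GRCm38.p6 from RefSeq windows because each lies between a pair of genes read in opposite directions, with GC boxes in capitals.
Col4a1 and Col4a2: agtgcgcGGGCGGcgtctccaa
Col4a4 and Col4a3: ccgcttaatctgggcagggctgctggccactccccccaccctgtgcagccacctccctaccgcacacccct
The 22 shared bases hold 72.7% G and C, and the 71 bases hold 69.0%. Across the 9 tumours, Col4a1 and Col4a2 varied in step (Pearson's r = 0.99, Spearman's rho = 0.97, exact permutation, adjusted over 9 pairs p = 0.00012 for r), and r was 0.97 without tumours 14 and 20. Col4a3 and Col4a4, chains of kidney and lung basement membrane, were both low. Col4a3 was at 1.32 to 2.64 CPM in epithelium and 0.182 to 1.56 CPM in tumours (log2 fold change -1.67, edgeR adjusted p = 0.0787; called lower by limma-voom, adjusted p = 0.00394). Col4a4 was at 2.12 to 2.84 CPM against 0.175 to 12 CPM (tumour 17), with a log2 fold change of 0.17.

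The third pair of type IV genes is on the X chromosome. Col4a5 (chrX:141475385-141689234, plus strand) was at 65.7, 103 and 53.9 CPM in epithelium and from 68.0 (tumour 1) through 223 to 448 CPM (tumour 17) in tumours. In 8 tumours it lay above every epithelium library, in 5 of them by more than 2-fold (log2 fold change 1.64 ± 0.51, SE; edgeR adjusted p = 0.038). The call ended without any 1 epithelium library or tumour 24 (adjusted p up to 0.169). Col4a6, read in the other direction from a start 1308 bases away, was at 36.3, 63.5 and 2.5 CPM in epithelium and from 7.01 (tumour 1) to 430 CPM (tumour 17) in tumours, without a call (log2 fold change 1.93 ± 1.36, SE; edgeR adjusted p = 0.322). Tumours 1, 4, 14 and 24 held at most 14.2 CPM of Col4a6 and the other 5 at least 90.7 CPM. Markers of endothelium, whose cells also make type IV collagen, summed to 891 to 1133 CPM in epithelium and 193 to 776 CPM in tumours. Of these 8, 3 were called lower (37.5%, against 11.4% of all genes), with log2 fold changes from -2.64 to -0.29 (Cdh5). Pericyte markers summed to 439 to 573 and 170 to 678 CPM, with no call among 6. The part of endothelium and pericytes in the type IV values was not tested.

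**Figure D3:**
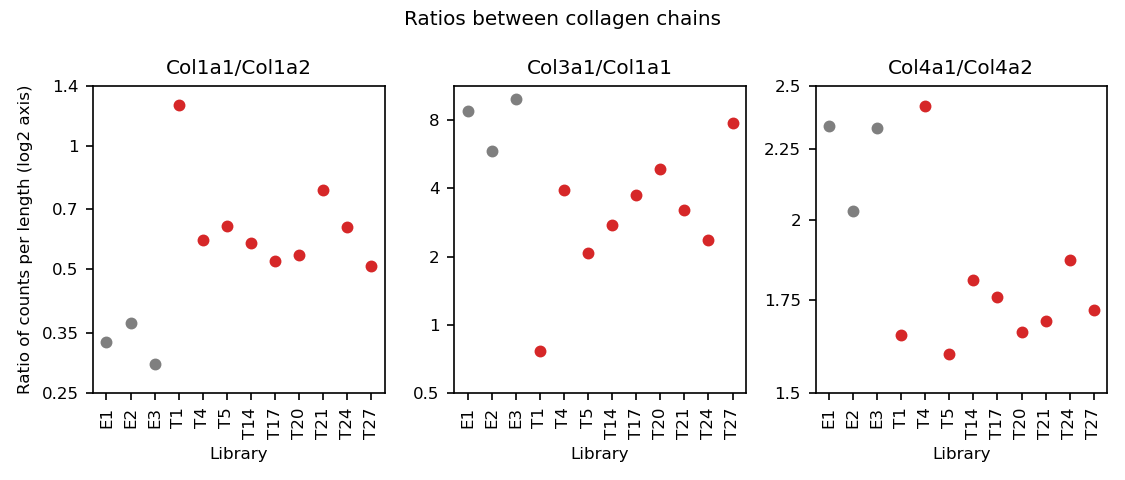
Ratios between counts per transcript length of 3 pairs of collagen chains in each library (log2 axes, which differ between panels), epithelium in grey and tumours in red. The Col1a1 to Col1a2 ratio lies at 0.293 to 0.370 in epithelium and 0.508 to 1.26 in tumours without overlap, whereas the other ratios overlap between groups.

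Chain proportions were compared for 10 pairs, chosen after the values were seen, by an exact permutation test over samples, whose smallest p is 0.00455. Type I collagen has 2 Col1a1 chains and 1 Col1a2 chain in its usual trimer. Per transcript length, Col1a1 was at 0.333, 0.370 and 0.293 of Col1a2 in epithelium and at 0.508 (tumour 27) to 1.26 (tumour 1) in tumours, with a median of 0.589. No tumour overlapped epithelium, and the log2 difference of 0.96 gave p = 0.00455 (exact permutation, two-sided; adjusted over 10 ratios p = 0.0455). With any library but tumour 4 left out, the adjusted p was 0.0606 to 0.273, while the log2 difference stayed at 0.84 to 1.05. With 8 tumours the smallest adjusted p that a single ratio can reach is 0.0606. The RNA ratio thus lay below 2 in every library. The Col4a1 to Col4a2 ratio was 2.03 to 2.34 in epithelium and 1.60 to 1.87 in tumours other than tumour 4, which had 2.42 (log2 difference -0.32, exact permutation p = 0.0182, adjusted p = 0.0909, and 0.0303 without tumour 4). The Col3a1 to Col1a1 ratio was 5.84 to 9.99 against 0.765 to 7.77 (log2 difference -1.42, exact permutation p = 0.0364, adjusted p = 0.121).

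Type VI collagen forms beaded filaments around cells, and none of its 6 genes was called by edgeR. Col6a3, the most abundant, was at 452, 237 and 431 CPM in epithelium and from 257 through 362 to 2168 CPM (tumour 21) in tumours. Col6a1 was at 231 to 305 CPM against 142 to 1663 CPM and Col6a2 at 135 to 188 CPM against 59.5 to 1153 CPM, again highest in tumour 21. The 3 chains of the common trimer had edgeR log2 fold changes of 0.66 to 0.75. Yet the tumour medians of Col6a1, Col6a2 and Col6a3 (266, 109 and 362 CPM) lay below the epithelium means (272, 159 and 374 CPM). Their log2 fold changes were 0.64, -0.03 and 0.14 with DESeq2 and 0.14, 0.03 and 0.39 with limma-voom. The 3 neighbouring genes on chromosome 9 had negative values with edgeR, DESeq2 and limma-voom. Col6a4 was at 30.9, 17.9 and 21.4 CPM in epithelium, at 15.6 CPM in tumour 27 and at 0.274 to 7.52 CPM in the other tumours, all below epithelium (log2 fold change -2.86 ± 0.98, SE; edgeR adjusted p = 0.0559). It was called lower without tumour 20 or 27, by DESeq2 (adjusted p = 0.0249) and by limma-voom (0.00011). Col6a5 was at 2.56 to 14.5 CPM in epithelium and Col6a6 at 14.5 to 18.6 CPM. In tumour 21 they stood at 22.4 and 38.7 CPM, and in the other 8 tumours at most at 4.29 and 13.5 CPM. Both DESeq2 (adjusted p = 0.0321) and limma-voom (0.00225) called Col6a6 lower, and Col6a5 was called lower by edgeR without tumour 21.

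The multiplexin Col18a1 (chr10:77052178-77166548, minus strand), a basement membrane collagen whose end fragment is endostatin, rose. It was at 87.2, 80.8 and 61.9 CPM in epithelium and from 191 (tumour 17) through 395 to 1827 CPM (tumour 1) in tumours. All 9 tumours exceeded the highest epithelium library more than 2-fold (log2 fold change 3.03 ± 0.79, SE; edgeR adjusted p = 0.0178). The adjusted p reached 0.0912 without an epithelium library, and the call ended without any of the 3. The other multiplexin, Col15a1, was at 96.1 to 119 CPM against 55.5 to 294 CPM and was not called. Col7a1, which forms the anchoring fibrils under stratified epithelium, was at 16.9, 53.3 and 24 CPM against 18.4 (tumour 24), 128 and 345 CPM (tumour 27). It was not called by edgeR (log2 fold change 2.22 ± 0.91, SE; adjusted p = 0.0989) but was by DESeq2 (0.0234) and limma-voom (0.0212).

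None of the 4 transmembrane collagens was called. Col17a1, the hemidesmosome collagen of basal epithelial cells, was at 36.8, 71.5 and 48.5 CPM in epithelium. Tumours 20 and 27 held 136 and 206 CPM and the other 7 tumours 0.307 to 16.4 CPM, so that 2 tumours lay above every epithelium library and 7 below. Its log2 fold change was -0.36 ± 1.62 (SE; edgeR adjusted p = 0.895), and -3.35 by limma-voom (adjusted p = 0.0114). The sum of the myoepithelial markers was also highest in tumour 27. It was 1182 to 1664 CPM in epithelium and 139 (tumour 24), 416 and 4138 CPM (tumour 27) in tumours, with no call among 8. Tumour 27 was the highest tumour for Krt5, Krt17, Myh11 and Cnn1. Krt14 was highest in tumour 5, Acta2 and Trp63 in tumour 20, and Oxtr in tumour 14. The part of myoepithelial cells in the Col17a1 values was not tested. Col23a1 was at 7.57 to 8.45 CPM in epithelium, 120 CPM in tumour 27 and 0.615 to 12.1 CPM in the other tumours. Col25a1 was at 3.57, 9.14 and 2.57 CPM against 0.532 (tumour 1), 25.9 and 120 CPM (tumour 14), with a log2 fold change of 2.73 (edgeR adjusted p = 0.113; called by DESeq2, adjusted p = 0.0203). Col13a1, Col26a1 and Col28a1 stayed below 10 CPM in every library, with log2 fold changes of -0.79, -0.59 and -1.07. Each was called lower by 1 other tool, Col26a1 by DESeq2 (adjusted p = 0.00585) and Col13a1 and Col28a1 by limma-voom (0.0456 and 0.00834).

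**Figure D4:**
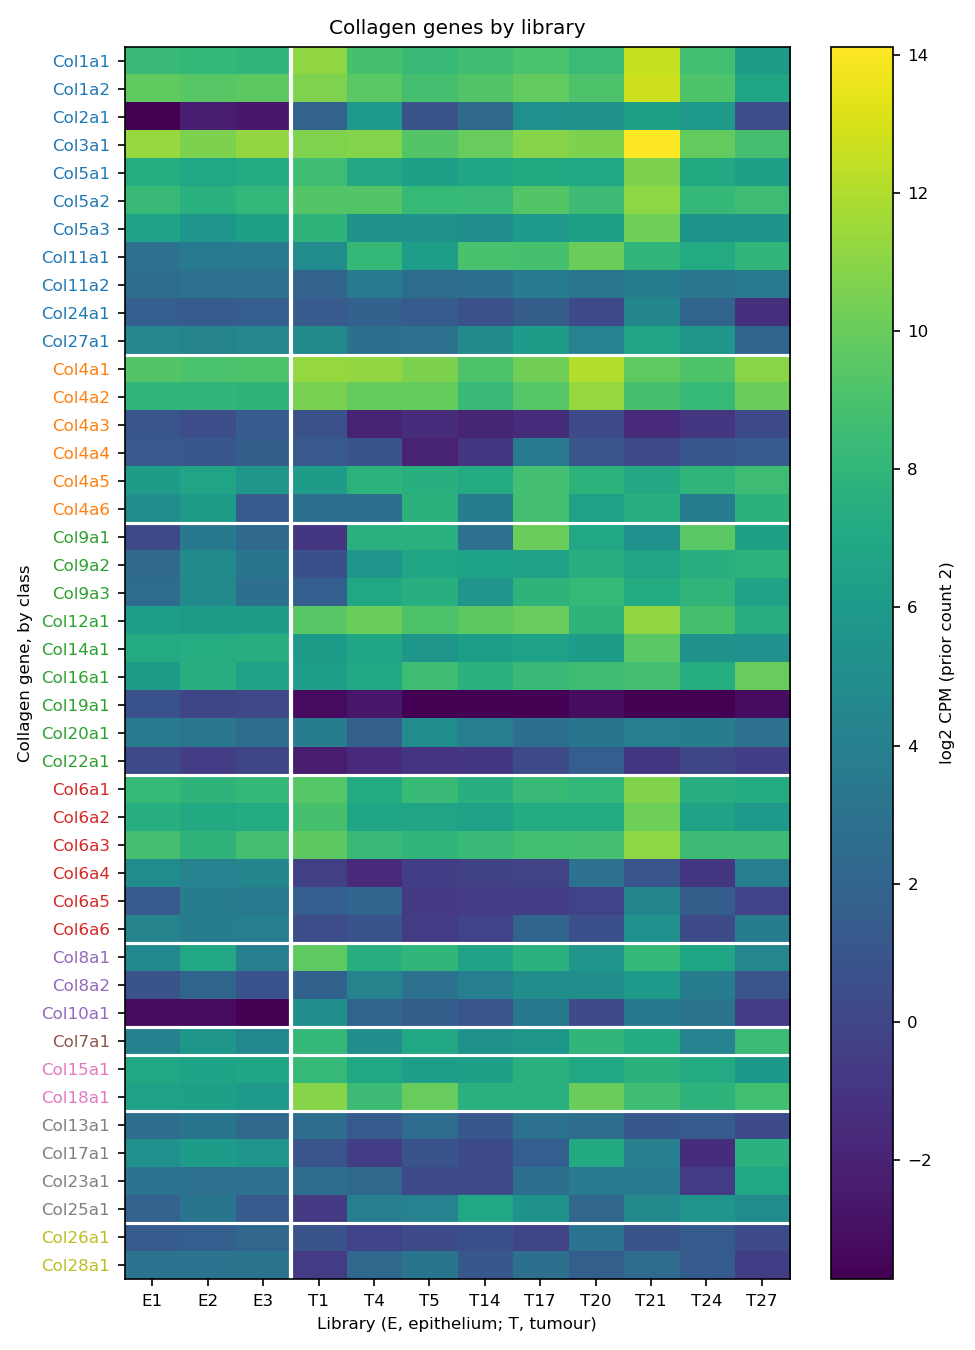
Log2 CPM (prior count 2) of the 44 collagen genes (rows, ordered and coloured by class) in 3 epithelium (E) and 9 tumour (T) libraries (columns). Tumour 21 is the highest tumour for 18 genes, most of them fibrillar or type VI, and the type IX rows are dark in tumour 1.

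Tumours differed from each other in which collagens they held. Tumour 21 was the highest tumour for 18 of 44 members, and its collagens took 5.219% of gene counts, against 0.658% to 0.827% in epithelium and 0.607% to 1.681% in the other tumours. Tumour 1 was the highest for Col10a1, Col8a1, Col15a1, Col18a1 and Col4a3 and the lowest for 11 members, among them Col11a1 and the type IX genes. Tumour 27 was the lowest for 16 members, among them Col1a1, Col1a2, Col3a1 and Col2a1, and the highest for 6, among them Col7a1, Col16a1 and Col17a1. Tumour 20 was the highest for Col4a1, Col4a2, Col9a3 and Col11a1. Without tumour 21 the median log2 fold change of the collagens was 0.32, down from 0.95.

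**Figure D5:**
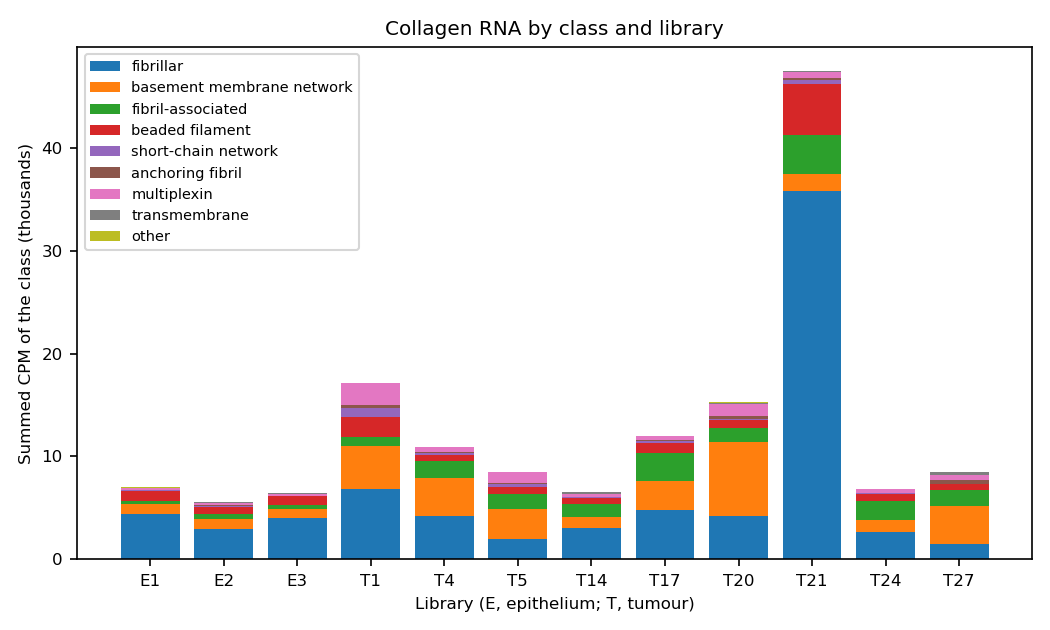
Summed CPM of the collagen genes in each library, stacked by class. The total is 5544 to 6970 CPM in epithelium and 6488 to 47463 CPM in tumours, where the fibrillar class makes up 17.1% (tumour 27) to 75.5% (tumour 21) of it.

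Summed over the family, collagens stood at 5544 to 6970 CPM in epithelium and at 6488 (tumour 14), 10898 (median) and 47463 CPM (tumour 21) in tumours. The make-up of this sum differed between libraries too. Fibrillar genes gave 53.5% to 62.4% of collagen CPM in epithelium and less than that in 8 tumours, 17.1% (tumour 27) to 46.9%, against 75.5% in tumour 21. Type IV genes gave 13.6% to 17.7% in epithelium and 3.4% (tumour 21) to 47.4% (tumour 20) in tumours. Fibril-associated genes gave 4.4% to 8.6% in epithelium and 5.2% (tumour 1) to 27.2% (tumour 24) in tumours. The most abundant collagen was Col3a1 in all epithelium libraries and in tumours 14, 17, 21 and 24, and Col4a1 in tumours 1, 4, 5, 20 and 27.

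Relations across the 9 tumours were tested for 9 pairs on log2 CPM, by exact permutation over all 362880 pairings, two-sided and adjusted over the 9. Partner chains moved together in type I (Col1a1 with Col1a2, Pearson's r = 0.98, Spearman's rho = 0.98, exact permutation adjusted p = 5e-05 for r and 0.00045 for rho) and still did without tumours 21 and 27 (r = 0.95). In type VI Col6a1 went with Col6a2 (r = 0.96, rho = 0.85, exact permutation adjusted p = 0.00151 and 0.0137, and r = 0.72 without tumours 1 and 21). Col3a1 and Col5a2, tail to tail 24614 bases apart, gave r = 0.92 and rho = 0.75 (exact permutation adjusted p = 0.0061 and 0.0459, and r = 0.84 without tumours 21 and 27). Without tumour 21 alone r was 0.69 (exact permutation adjusted p = 0.126).

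In the other pairs r was 0.44 or less without the 2 farthest tumours, or did not pass the threshold over all 9. Col1a1 with Col3a1 gave r = 0.86 and rho = 0.88 (exact permutation adjusted p = 0.0061 and 0.00923). Without tumour 21 alone r was 0.72 (exact permutation adjusted p = 0.0554), and without tumours 21 and 27 it was 0.44. Leaving out the 2 farthest tumours narrows the range, which by itself can lower r. The drop therefore cannot show that the relation rested on them. Col5a1 with Col5a2 gave r = 0.89 and rho = 0.53 (exact permutation adjusted p = 0.0112 and 0.221), with r = 0.38 without tumours 1 and 21. Col2a1 and Col9a1, whose proteins meet in cartilage fibrils, gave r = 0.42 and rho = 0.20 (exact permutation adjusted p = 0.348 and 0.762), and r = 0.81 without tumours 5 and 27. Col1a1 had no detectable relation to Col4a1 (r = -0.17, rho = -0.12, exact permutation adjusted p = 0.67 and 0.776) or to Col17a1 (r = -0.26, rho = -0.17, exact permutation adjusted p = 0.574 and 0.762).

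As a description over 9 tumours that share library depth and scaling, the median r was 0.90 (0.79 to 0.99) among the pairs of 9 interstitial genes. It was 0.56 (0.19 to 0.91) among Col2a1, Col9a1, Col9a2, Col9a3 and Col11a1, and -0.24 (-0.52 to 0.65) between both sets. With Col10a1 and Col11a2, which are also known from cartilage, added to the second set, these became 0.46 (-0.69 to 0.91) and -0.12 (-0.52 to 0.79). Col10a1 went against the type IX genes and Col11a1 (r = -0.27, -0.69, -0.45 and -0.57 for Col9a1, Col9a2, Col9a3 and Col11a1) and with Col1a1 (r = 0.79). Over all 561 pairs of the 34 collagens with at least 5 CPM it was 0.13. These sets were put together after the values were seen.

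The enzymes, partners and receptors of collagens were a list of 51 genes, of which 49 were tested, 6 rose and 3 fell. The share called was 18.4%, near the background of 20.3%, and the median log2 fold change was 0.64. The share called higher was 12.2%, against 8.89% of all genes, and the share called lower was 6.12%, against 11.4%. Intracellular modification and folding held 20 genes, of which Ppib, Plod3, Plod2 and Serpinh1 rose. Ppib, the prolyl isomerase of the endoplasmic reticulum that helps the helix fold, was at 140, 132 and 146 CPM in epithelium and 249 to 792 CPM in tumours, without overlap (log2 fold change 1.63 ± 0.33, SE; edgeR adjusted p = 0.00458). The value was 0.39 with the percentage of alignments outside genes in the model. Plod3, a lysyl hydroxylase, was at 45.4, 38.5 and 47.6 CPM against 77.7 to 158 CPM, also without overlap (log2 fold change 1.34 ± 0.28, SE; edgeR adjusted p = 0.00484). Plod2 and the collagen chaperone Serpinh1 (log2 fold changes 1.99 and 1.38, edgeR adjusted p = 0.0235 and 0.0314) lost their calls without any 1 epithelium library.

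Extracellular processing and cross-linking held 13 genes, of which 12 were tested, 1 rose and 1 fell (8.33% each, against 8.89% and 11.4% of all genes). Loxl3, a lysyl oxidase that cross-links collagen, rose from 17.6, 16.3 and 16.2 CPM to 49.7 to 163 CPM (median 71.7), with every tumour above epithelium (log2 fold change 2.32 ± 0.39, SE; edgeR adjusted p = 0.0012), also with that percentage in the model (adjusted p = 0.0288). Tll1, a procollagen C-proteinase of the Bmp1 family, fell from 13.9, 20 and 15.5 CPM to 1.27 to 6.85 CPM (log2 fold change -2.16 ± 0.44, SE; edgeR adjusted p = 0.00438). Of 8 small leucine-rich and other fibril partners 1 was called, and it was lower (12.5%, against 11.4% of all genes). This was Ogn, osteoglycin, which fell from 115, 66.8 and 130 CPM to 0.545 to 20.9 CPM (log2 fold change -4.05 ± 0.68, SE; edgeR adjusted p = 0.00121).

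Among 9 tested collagen receptors 1 rose and 1 fell (11.1% each, against 8.89% and 11.4% of all genes). Ddr1, a receptor tyrosine kinase of epithelial cells that binds collagen, was at 35.4, 41.9 and 30.7 CPM in epithelium and 36.8 to 139 CPM in tumours, of which 8 lay above every epithelium library (log2 fold change 1.38, edgeR adjusted p = 0.0179). Itga1, the alpha chain of a collagen-binding integrin, was at 147, 135 and 114 CPM against 36.5 to 97.4 CPM, without overlap (log2 fold change -0.98, edgeR adjusted p = 0.0386). Both calls ended without any 1 epithelium library, and that of Itga1 also without tumour 5 or 21.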

How the data were processed

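Per the labels' protocols, RNA of 9 tumours and 3 epithelium preparations was isolated with a column kit and sequenced from stranded (TruSeq) libraries. The authors deposited raw whole-number counts per gene symbol, with no normalization, and 5 summary counts per library, which were left out of library sizes. Per the submitters' processing notes, the tools were TopHat2 2.1.1 and HTSeq 0.11.0, with FastQC 0.11.8, on GRCm38. Strand setting and annotation release: not given in the sources used here. So reads of overlapping genes on opposite strands may not be separated. Groups and numbers came from the titles, whose prefix (R597 or R688) coincides with the group, so a batch of that kind cannot be told apart from it.

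The members and lists were chosen with earlier results of these data known. All 12 libraries entered 1 model with the group as its only term, fitted with edgeR 4.0.16 under R 4.3.3 after filterByExpr and TMM scaling, by the robust quasi-likelihood F test. The call threshold was 0.05 after Benjamini-Hochberg adjustment across the whole table. The fit was tested on simulated data. Per-library CPM carry no prior count, and log2 CPM for relations and plots carry a prior count of 2. Ratios and ranks per length used the longest protein-coding transcript of GENCODE M21, to which 54106 of 54658 genes matched and from which positions and predicted chains were taken. Promoter windows came from RefSeq (GRCm38.p6). The windows printed before start sites overlapped no annotated exon, whereas the motif shares were counted over all windows without that filter. Counting intervals are exact 95% intervals and reflect counting alone, because PCR copies cannot be told from separate molecules here. No 2 libraries of a group were copies (chi-square per degree of freedom at least 24.1 in epithelium and 217 in tumours).

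Values were given for Col2a1, Col1a1 and Col4a1, for called collagens, for the most abundant of each class and for those with a tumour mean of at least 5 CPM in which Dixon's ratio over 9 tumours passed 0.493. From each other list, up to 2 called genes per direction were given, those of smallest adjusted p. Genes named beyond this, such as Plod2, Serpinh1, Acan, Chad, Comp, Sox5, Sox6 and Sox9, and the 10 chain ratios were chosen after their values were seen. Alternatives were upper quartile or relative log expression scaling, no filter or at least 10 counts in 9 libraries, DESeq2 1.42.0, limma-voom (limma 3.58.1), the percentage of alignments outside genes as an extra term, another scale or prior count for relations, and leaving out each library. DESeq2 ran at its default settings, under which a count far from the rest of its group can be replaced. Its values may thus repeat those of a run without that tumour. Relations and ratios were computed with scipy 1.17.1, pandas 2.3.3 and numpy 2.4.6 (Python 3.11.15), and matplotlib 3.10.9 drew the figures.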

Additional observations from a re-analysis of the deposited data

Results flagged for a closer look

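In 27 collagens a single tumour stood far from the other 8 by Dixon's ratio at its 95% critical value on CPM. Chance passes it in about 1 of 20 groups of normal values, but CPM are skewed: 61.4% of the collagens and 28.6% of all genes tested passed. On log2 CPM, tried after seeing the data, 7 collagens passed (15.9%, against 12% of all genes): Col3a1, Col5a2, Col9a2, Col9a3, Col14a1, Col19a1 and Col26a1. Of the 27 marked on CPM, 14 were set by tumour 21. Its CPM were 17738 for Col3a1, 6815 for Col1a2, 5883 for Col1a1, 2287 for Col12a1, 2210 for Col5a2, 2168 for Col6a3, 1663 for Col6a1, 1541 for Col5a1, 1160 for Col5a3 and 1153 for Col6a2. The remaining 4 were 743 CPM for Col14a1, 38.7 for Col6a6, 22.4 for Col24a1 and 22.4 for Col6a5. Of the other pathway genes, Ogn was also set apart by tumour 21, at 20.9 CPM, though this lay below every epithelium library. The summed fibroblast markers were highest in the same tumour, at 3154 CPM.

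On CPM, 7 other tumours stood apart in 1 to 3 collagens each, and tumour 24 in none. Tumour 20 held 1052 CPM of Col11a1, 8.44 CPM of Col26a1 and 2.98 CPM of Col22a1. Tumour 27 held 980 CPM of Col16a1, 120 CPM of Col23a1 and 15.6 CPM of Col6a4. Tumour 1 held 836 CPM of Col8a1 and 34.3 CPM of Col10a1, and tumour 17 held 430 CPM of Col4a6 and 12 CPM of Col4a4. Tumour 14 held 120 CPM of Col25a1 and tumour 5 held 30.8 CPM of Col20a1. Tumour 4, the library with the smallest scaling factor (0.557), held 792 CPM of Ppib and 0.0912 CPM of Col19a1, the latter below its limit of 0.274 CPM for 3 counts.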

How the results depend on the processing

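No paired analysis was possible because the groups differ in genotype and the labels match no tumour to an epithelium preparation. The number of collagens called higher, 9, was 0 with the percentage of alignments outside genes in the model, 14 with DESeq2 and 15 with limma-voom, and 4 to 11 when 1 library was left out. The number called lower, 1, was 0 with at least 10 counts in 9 libraries, where 42 collagens were tested and Col19a1 was not among them. It was 5 with DESeq2, 7 with limma-voom and 1 to 3 without 1 library. Of all genes 20.3% were called in the main run and 3.07% with the percentage of alignments outside genes in the model. The share was 25.3% with DESeq2, 49.5% with limma-voom and 8.97% to 24.1% without 1 library. Of the other pathway genes 6 were called higher, against 1 with the percentage of alignments outside genes, 11 with DESeq2, 14 with limma-voom and 3 to 8 without 1 library. Called lower were 3, against 0 with that percentage, 7 with DESeq2, 10 with limma-voom and 2 to 4 without 1 library. Upper quartile scaling moved the median over all genes from 0.17 to 0.07 on the log2 scale and that over the collagens to 0.88. Leaving out tumour 21 gave r = 0.72 for Col1a1 with Col3a1, 0.69 for Col3a1 with Col5a2 and 0.59 for Col5a1 with Col5a2, none past the threshold, and the highest r with another tumour left out were 0.94, 0.95 and 0.92. The cause of these changes was not tested. No collagen changed sign past the threshold in any alternative run. Short of the threshold some signs did change. The log2 fold change of Col3a1 was 0.49 with edgeR, -0.74 with DESeq2 and -0.49 with limma-voom, and that of Col1a2 was 0.83, -0.12 and -0.03. Others that turned negative with 1 or both of these tools included Col5a3, Col6a2, Col23a1 and Col24a1. Depth limited Col2a1, Col10a1 and Col19a1, which rest on 7, 2 and 4 counts in the lower group.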
